A study of Homo sapiens with 6 samples.

Results

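The 23 genes described here are protein-coding genes whose mean level in HL-60 cells with a short hairpin RNA (shRNA) against EZH2 was at most 25% of the mean in cells with a scrambled hairpin, a difference of at least 4-fold. They were chosen by their mean FPKM in the 2 groups, from the 10433 protein-coding genes that had at least 150 counts summed over the 3 control libraries, out of 58884 genes in the table. FPKM is the number of fragments scaled by the length of the gene model and the depth of the library. In all 37 genes met the limits, of which 6 genes of the IFIT and OAS antiviral families and 8 genes with ZNF or ZFP names were set aside, leaving 23. The 37 are 0.355% of the genes that could qualify, and 28 genes (0.268%) were higher by at least 4-fold. Because the same 6 libraries chose the 23 genes, their levels and fold changes are a description and carry no test.

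The cells are HL-60, an established human line from an acute myeloid leukemia that carries mutated RAS and looks like promyelocytes, the granule-forming precursors of neutrophils. Both groups were transduced with a lentivirus, selected with puromycin that was removed 2 days before the experiment, and held for 24 hours in medium with 0.05% serum. The control shRNA group holds libraries 3, 4 and 5, carrying the scrambled hairpin, and the EZH2 shRNA group holds libraries 1, 3 and 4. The design text calls the lines knock-outs, while the protocol in the labels speaks of stable knockdown cells. Nothing in the sources used here says how many hairpins, transductions or cultures stand behind the libraries, so the spread between libraries may be technical.

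EZH2 is the catalytic subunit of Polycomb repressive complex PRC2, which places methyl groups on lysine 27 of histone H3. That mark is best known for keeping developmental and lineage genes silent. Interferon-responsive genes, a class among the 23, are switched on when a complex of STAT proteins and IRF9 binds a short element in their promoters.

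EZH2 mRNA itself averaged 149.5 ± 1.61 CPM (counts scaled to a common depth) under the scrambled hairpin (SD, n = 3) and 79.98 ± 3.01 CPM under its own hairpin (SD, n = 3), 53.5% of control. Its log2 fold change was -0.90 (SE 0.04, edgeR quasi-likelihood adjusted p = 3.22e-11; exact two-sided permutation p = 0.1, the smallest that 3 against 3 can give). Total counts lay between 39717343 and 85074624 per library. Of 8 promyelocyte and neutrophil markers, MPO was between 2600 and 2866 FPKM in the 6 libraries and ELANE was at 0.217 FPKM or less, while PRTN3 was between 16.96 and 21.7 FPKM in controls and between 80.96 and 92.7 FPKM in EZH2 shRNA libraries. AZU1, CEBPE and ELANE, and by small margins SPI1 and CD33, were also higher in every EZH2 shRNA library than in any control, and CTSG was lower. The list summed to between 3110 and 3360 FPKM in controls and between 3210 and 3353 FPKM in EZH2 shRNA libraries, most of it MPO. The 6 eosinophil and basophil markers, none at 0 in all libraries, summed to between 4.11 and 4.41 FPKM in controls and between 145.3 and 173.4 FPKM in EZH2 shRNA libraries. The 6 monocyte and macrophage markers summed to between 26.02 and 27.03 FPKM in controls and between 17.4 and 19.1 FPKM in EZH2 shRNA libraries. The part of these shifts in the results below was not tested, and in bulk RNA fewer cells expressing a gene cannot be told apart from less RNA per cell.

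Expression of the 23 genes was low already in the control cells. Their mean control level ranged from 0.108 FPKM for MX2 to 13.9 FPKM for CLEC5A with a median of 0.468, against a median of 6.39 FPKM over the 10433 genes. In 19 of the 23 the mean control level was under 1 FPKM, where 12.2% of the 10433 genes lay, and 22 of the 23 were below the median of the 10433. Mean levels in EZH2 shRNA cells ranged from 0.00837 to 1.84 FPKM, and 18 of the 23 were under 0.1 FPKM, a range that held 0.403% of the 10433 genes. The 18 are part of that share, and choosing genes by a low EZH2 shRNA level makes the contrast likely. The residual level, defined here as the mean EZH2 shRNA FPKM in percent of the mean control FPKM, ranged from 1.48% to 24.7% with a median of 11.9%. It was under 6.25%, a 16-fold difference, for 5 genes, between 6.25% and 12.5% for 7, and above 12.5% for 11. CLEC5A was the only one of the 23 with a mean EZH2 shRNA level above 1 FPKM. No library of one group reached the range of the other for any of the 23, as was so in this direction for 36.5% of the 10433 genes, and the choice of the genes makes such a gap likely.

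**Figure D1:**
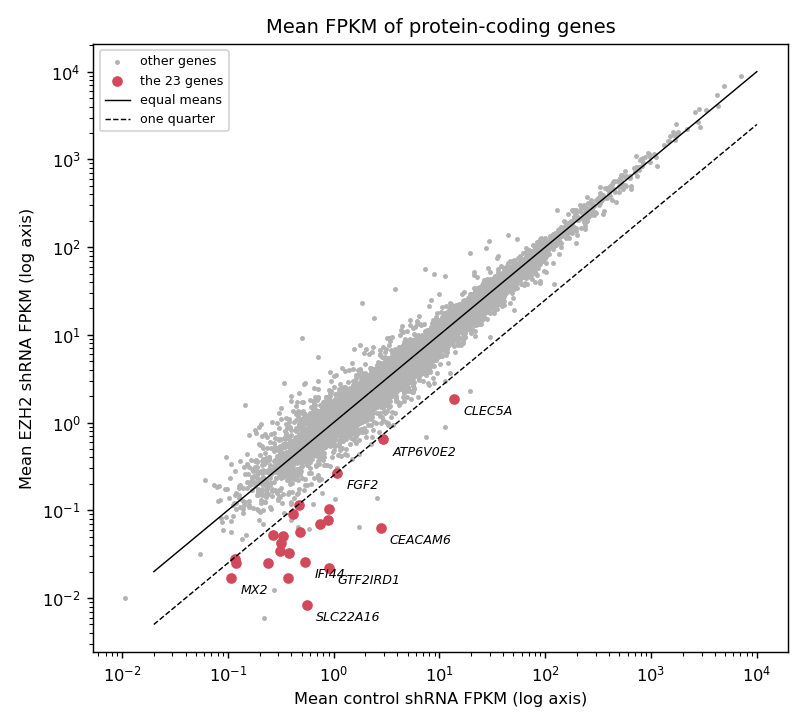
Mean FPKM of each of the 10433 protein-coding genes in the 3 control libraries (horizontal, log axis) and the 3 EZH2 shRNA libraries (vertical, log axis), with the 23 genes in red, equal means as a solid line and 25% of control as a dashed line. The red points lie at the low end of the control axis apart from CLEC5A at 13.9 FPKM; grey points under the dashed line are the genes set aside by name, and a gene with a mean of 0 is not drawn.

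Promoter sequences from RefSeq (GRCh38.p14, 250 bases before to 50 bases after a start site) were found by symbol for 16 of the 23 genes, taking the window nearest to the gene start in the deposited table. The 5 shown here, read 5′ to 3′ with every CG pair in capitals, are those of the 3 genes with the lowest residual levels, of CLEC5A, which had the highest control level, and of CXCL11, for its lack of CG pairs.
SLC22A16, chr6:110476564-110476863, minus strand: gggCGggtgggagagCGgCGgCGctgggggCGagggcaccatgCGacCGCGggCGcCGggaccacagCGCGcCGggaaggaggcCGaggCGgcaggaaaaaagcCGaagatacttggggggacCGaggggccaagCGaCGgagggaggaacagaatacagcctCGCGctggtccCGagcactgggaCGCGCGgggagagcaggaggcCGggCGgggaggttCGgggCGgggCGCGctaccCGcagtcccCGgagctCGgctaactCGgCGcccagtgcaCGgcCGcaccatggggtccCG
GTF2IRD1, chr7:74453656-74453955, plus strand: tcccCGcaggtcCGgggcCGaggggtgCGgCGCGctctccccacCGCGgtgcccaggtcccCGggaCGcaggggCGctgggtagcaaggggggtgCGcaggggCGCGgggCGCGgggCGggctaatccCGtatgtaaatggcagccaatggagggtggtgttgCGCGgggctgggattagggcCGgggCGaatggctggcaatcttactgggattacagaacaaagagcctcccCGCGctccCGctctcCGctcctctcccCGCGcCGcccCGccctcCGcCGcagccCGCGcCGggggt
CEACAM6, chr19:41755280-41755579, plus strand: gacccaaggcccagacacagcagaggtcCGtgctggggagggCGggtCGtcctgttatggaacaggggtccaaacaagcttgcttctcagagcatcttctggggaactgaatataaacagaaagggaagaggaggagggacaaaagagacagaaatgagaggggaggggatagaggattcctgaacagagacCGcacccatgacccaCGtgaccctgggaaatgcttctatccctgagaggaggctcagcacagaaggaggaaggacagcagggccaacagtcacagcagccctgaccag
CLEC5A, chr7:141946925-141947224, minus strand: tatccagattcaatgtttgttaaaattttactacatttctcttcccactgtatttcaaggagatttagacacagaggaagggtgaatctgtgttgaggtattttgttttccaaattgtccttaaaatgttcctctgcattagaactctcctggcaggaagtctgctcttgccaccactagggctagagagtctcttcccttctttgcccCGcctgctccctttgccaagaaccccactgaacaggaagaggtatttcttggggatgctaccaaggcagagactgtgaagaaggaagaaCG
CXCL11, chr4:76036021-76036320, minus strand: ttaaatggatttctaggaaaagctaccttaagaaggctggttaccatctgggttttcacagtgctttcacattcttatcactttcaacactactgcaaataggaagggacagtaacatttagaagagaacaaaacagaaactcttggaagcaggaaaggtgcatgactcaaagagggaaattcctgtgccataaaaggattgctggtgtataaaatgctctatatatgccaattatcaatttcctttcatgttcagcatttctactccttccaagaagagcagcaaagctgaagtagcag
SLC22A16 and GTF2IRD1 have 39 and 35 CG pairs in 300 bases, CEACAM6 and CLEC5A have 5 and 2, and CXCL11 has 0. For CEACAM6, CXCL11 and NRG4 the RefSeq start lies 4553, 5345 and 47371 bases from the gene start in the deposited table.

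CG pairs are the sites of DNA methylation, and promoters of broadly expressed genes are usually rich in them. The ratio of observed to expected CG pairs had a median of 0.51 over the 16 windows and 0.856 over 8382 windows of the qualifying genes, and 0.8 over the 973 of these with a control level under 1 FPKM. It was under 0.4 for 5 of 16 (31.2%), namely CEACAM6, IFI44, CXCL11, CLEC5A and KLHDC7B, against 7.25% of the 8382 and 14.8% of the 973. Over all 35114 windows in the table, which include genes that did not qualify, the median was 0.579 and 40.6% were under 0.4, so the share among the 16 lay between these backgrounds. At the other end SLC22A16 at 0.982 and FGF2 at 0.988 were in the CG-dense range, as were GTF2IRD1 at 0.857 and DSP at 0.833. Genes with CG-poor and CG-dense windows thus both occur among the 5 with the lowest residual levels. No test was made on these shares.

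**Figure D2:**
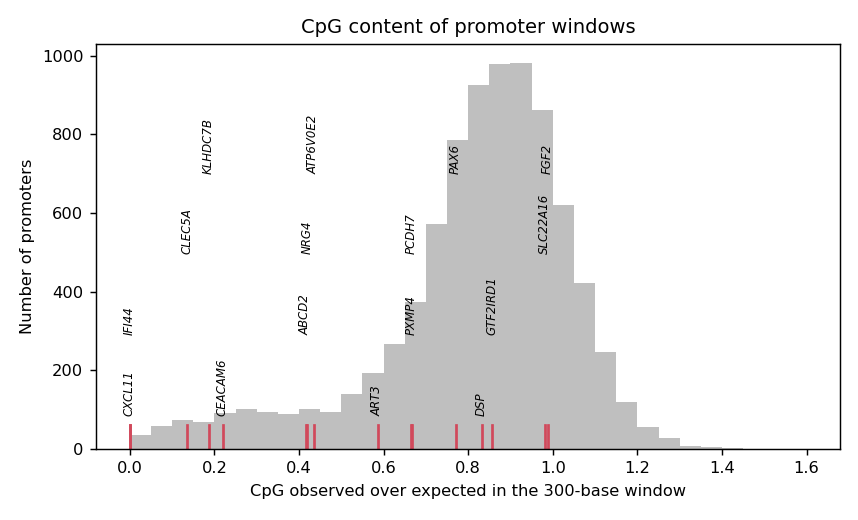
Ratio of observed to expected CG pairs in 300-base promoter windows (horizontal) for 8382 qualifying genes (grey bars, number of promoters on the vertical axis), with the 16 genes marked in red and named. CXCL11 and IFI44 sit at 0, and SLC22A16 and FGF2 at 0.982 and 0.988.

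Of the promoter motifs searched on both strands, the core of the interferon-stimulated response element (GAAA, any 2 bases, then GAAA) is shown for IFI44, the only one of the 16 windows to hold it. Its letters are in capitals here, on the reverse strand as TTTCAGTTTC, starting at position -18 from the start site.
IFI44, chr1:78649539-78649838, plus strand: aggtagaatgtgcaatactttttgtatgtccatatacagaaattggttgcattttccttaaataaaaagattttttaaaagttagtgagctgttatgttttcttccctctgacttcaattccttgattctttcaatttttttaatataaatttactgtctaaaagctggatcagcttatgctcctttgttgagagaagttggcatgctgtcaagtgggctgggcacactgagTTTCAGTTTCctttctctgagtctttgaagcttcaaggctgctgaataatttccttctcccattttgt
The element was present in 3.57% of 35114 windows in the table and 2.77% of the 8382. Among the interferon-responsive genes described here, only IFI44 and CXCL11 had a window. No window was found for APOL1, RARRES3, SLFN5 and MX2, so their promoters were not searched for the element. The C/EBP pattern TTNNGNAA was in 9 of the 16 windows (56.2%, against 36.8% of all windows and 25% of the 8382), and the TATA box TATAAA in 4 (25%, against 11.5% and 5.06%). The GC box GGGCGG was in 9 (56.2%, against 45% and 71.9%) and CCAAT in 7 (43.8%, against 34.6% and 37.3%). CACGTG was in 2 windows (12.5%, against 7.26% and 10.9%), AGATAA in 2 (12.5%, against 10.3% and 4.46%), TGATAA in 2 (12.5%, against 7.53% and 3.2%), TTCNNNGAA in CXCL11 alone (6.25%, against 7.66% and 6.08%) and GAGGAAGT in 0 (against 2.59% and 2.7%). Median GC content was 57.8% over the 16 windows and 65.3% over the 8382, and its part in these shares was not tested. A match describes letters and not binding.

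Genes of transport and the peroxisome held the lowest residual level of all. SLC22A16 (ENSG00000004809; GRCh38 chromosome 6, 110424687 to 110476641, minus strand), a carnitine transporter of the organic ion family, was at 0.428, 0.553 and 0.715 FPKM in control libraries 3, 4 and 5. In EZH2 shRNA libraries 1, 3 and 4 it was at 0.0204, 0.00475 and 0 FPKM, from 4, 1 and 0 counts against 298 over the controls; the count of 0 allows up to 0.00897 FPKM (3 counts). The residual level was 1.48%, and the ratio of summed counts had a 95% exact counting interval of 0.385% to 2.82%. Counting intervals cover counting error only. The fitted log2 fold change was -6.25 (SE 0.48); it was -7.87 without EZH2 library 1 and -5.44 without EZH2 library 4, from 5 counts in all. SLC22A16 also had the widest spread among the control libraries, with an SD of 25.5% of the mean.

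PXMP4 (ENSG00000101417; chromosome 20, 33702758 to 33720319, minus strand), a peroxisomal membrane protein, stood at 0.332, 0.371 and 0.402 FPKM in the controls and 0.0244, 0.0162 and 0.0102 FPKM with EZH2 shRNA, a residual of 4.59%. Every EZH2 shRNA library was at least 13.6-fold under the lowest control. ABCD2 (ENSG00000173208; chromosome 12, 39550033 to 39619803, minus strand), a half-transporter that carries very long-chain fatty acids into peroxisomes, went from 0.249, 0.292 and 0.265 FPKM to 0.0569, 0.0472 and 0.052 FPKM, leaving 19.4%. Its values were close together within each group. ATP6V0E2 (ENSG00000171130; chromosome 7, 149872968 to 149891204, plus strand), the e2 subunit of the proton pump that acidifies lysosomes and other vesicles, was among the better expressed of the 23, at 3.07, 2.89 and 2.87 FPKM in the controls. In the EZH2 shRNA libraries it was at 0.687, 0.589 and 0.652 FPKM, 21.8% of control, from 824 counts. Its partner isoform gene ATP6V0E1 went slightly the other way, from 47.6 to 52.9 CPM, a log2 fold change of 0.15 (SE 0.05, edgeR adjusted p = 0.0282).

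Other genes of carnitine handling and the peroxisome moved both ways. Of 32 further measured genes on that list, 8 were called lower, 8 higher and 16 neither, with a median log2 fold change of -0.05. Over all 16859 genes tested 22.9% were called lower and 23.8% higher. The 11391 tested protein-coding genes outside the 23 and the names set aside gave 28.3% lower and 28.8% higher. The carnitine and ergothioneine transporter gene SLC22A4 fell from 8.42 to 3.54 CPM (log2 difference -1.26, SE 0.10, edgeR adjusted p = 2.92e-08). PEX5, the import receptor for peroxisomal enzymes, and CPT1A, the carnitine palmitoyltransferase of mitochondria, rose by 0.51 (SE 0.05) and 0.47 (SE 0.05). PXMP2, the family gene of PXMP4, was at -0.11 (edgeR adjusted p = 0.331).

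Cell surface, receptor and junction genes made up the largest class, with 7 of the 23. CEACAM6 (ENSG00000086548; chromosome 19, 41750977 to 41772211, plus strand), a lipid-anchored adhesion molecule of granulocytes and epithelia, was at 2.77, 2.57 and 3.04 FPKM in the controls and 0.0471, 0.119 and 0.0237 FPKM with EZH2 shRNA. The residual of 2.27% was uneven between libraries. EZH2 library 3 kept 4.27% of control (exact Poisson 95% interval 2.57% to 6.67%) and EZH2 library 4 kept 0.849% (0.311% to 1.85%), intervals that do not overlap. AC243967.2, annotated on the opposite strand within CEACAM6, had 68 counts over the controls and 3 over the EZH2 shRNA libraries, and without a stated strand setting the reads of this pair cannot be told apart. CEACAM19, the only other gene with a CEACAM name that passed the expression filter, rose from 0.478 to 1.08 CPM (1.17 on the log2 scale, SE 0.27, edgeR adjusted p = 0.00173).

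CLEC5A (ENSG00000258227; chromosome 7, 141927357 to 141947007, minus strand), a C-type lectin of myeloid cells that signals through the adaptor DAP12, was the best expressed of the 23. Its control libraries held 13.4, 13.8 and 14.4 FPKM and its EZH2 shRNA libraries 1.98, 1.68 and 1.88 FPKM, with means of 13.9 ± 0.513 and 1.84 ± 0.154 FPKM (SD, n = 3 each). With 7705 and 1447 counts the residual of 13.3% was the most precisely counted (12.6% to 14.2%), and the fitted log2 fold change was -2.90 (SE 0.07). Other measured CLEC genes did not share this: CLEC12A, an inhibitory myeloid lectin, rose by 0.22 (SE 0.05, edgeR adjusted p = 0.00205) and CLEC2D by 0.75 (SE 0.09, adjusted p = 2.7e-06). CLEC4D, a lectin of activated myeloid cells, rose from 0.0256 to 0.628 CPM. CLEC5A lies inside the span of the maltase gene MGAM, on the opposite strand, whose own log2 fold change was 0.07 (adjusted p = 0.616).

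IL23R (chromosome 1, 67138907 to 67259979, plus strand), the specific chain of the interleukin 23 receptor, was at 0.573, 0.433 and 0.431 FPKM in controls and 0.0548, 0.0739 and 0.0429 FPKM with EZH2 shRNA, 11.9% of control. Control library 3 was the highest, and the groups were far apart. ART3 (chromosome 4, 76011184 to 76112802, plus strand), a lipid-anchored member of the ADP-ribosyltransferase family, was at 0.703, 0.788 and 0.738 FPKM against 0.085, 0.0113 and 0.111 FPKM. Its mean residual of 9.28% covers a split: EZH2 library 3, with 2 counts, was at 1.52% of control (exact Poisson 95% interval 0.185% to 5.51%), while libraries 1 and 4 were at 11.4% (6.26% to 19.2%) and 14.9% (10.1% to 21.1%). The span of ART3 contains the chemokine genes CXCL10 and CXCL11 on the opposite strand. Without a stated strand setting their reads cannot be told apart. In EZH2 shRNA libraries 1, 3 and 4 CXCL11 had 7, 8 and 13 counts where ART3 had 14, 2 and 31.

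The other 3 genes of the surface, receptor and junction class sat closer to the limit. PCDH7 (chromosome 4, 30720415 to 31146805, plus strand), a protocadherin, went from 0.118, 0.108 and 0.136 FPKM to 0.0244, 0.0273 and 0.0229 FPKM, a residual of 20.6%. MPZL3 (chromosome 11, 118226690 to 118252365, minus strand), an immunoglobulin-like membrane protein related to myelin protein zero, went from 0.439, 0.394 and 0.413 FPKM to 0.0899, 0.0979 and 0.088 FPKM (22.2%). DSP (chromosome 6, 7541617 to 7586714, plus strand), desmoplakin, which ties desmosomes to keratin filaments, went from 0.129, 0.116 and 0.11 FPKM to 0.0178, 0.0333 and 0.0326 FPKM (23.6%). For PCDH7 and MPZL3 the libraries of each group were close together, whereas DSP was lower in EZH2 library 1, at 15.1% of control, than in libraries 3 and 4, at 28.2% and 27.6%. CEACAM6 and DSP are also epithelial genes. Of 6 fibroblast and epithelial markers, EPCAM, KRT19 and COL1A2 were at 0 in every library, and the list summed to between 0.12 and 0.229 FPKM in controls and between 0.358 and 0.474 FPKM with EZH2 shRNA.

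Granulocyte surface and adhesion genes as a list moved both ways around CEACAM6 and CLEC5A. Of 19 further measured genes, 6 were lower, 6 higher and 7 without a call, with a median log2 fold change of 0.09. Of all genes tested 22.9% were lower and 23.8% higher. The shares were 28.3% and 28.8% over the 11391 tested protein-coding genes outside the 23 and the names set aside. The Fc receptor genes FCGR1A and FCGR2A rose by 1.30 and 1.37 on the log2 scale (edgeR adjusted p = 4.06e-09 and 1.35e-08). SELPLG, the ligand of P-selectin, fell from 37.7 to 19.2 CPM (-0.97) and ITGB2, the beta chain of the leukocyte integrins, from 207 to 139.2 CPM (-0.57).

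**Figure D3:**
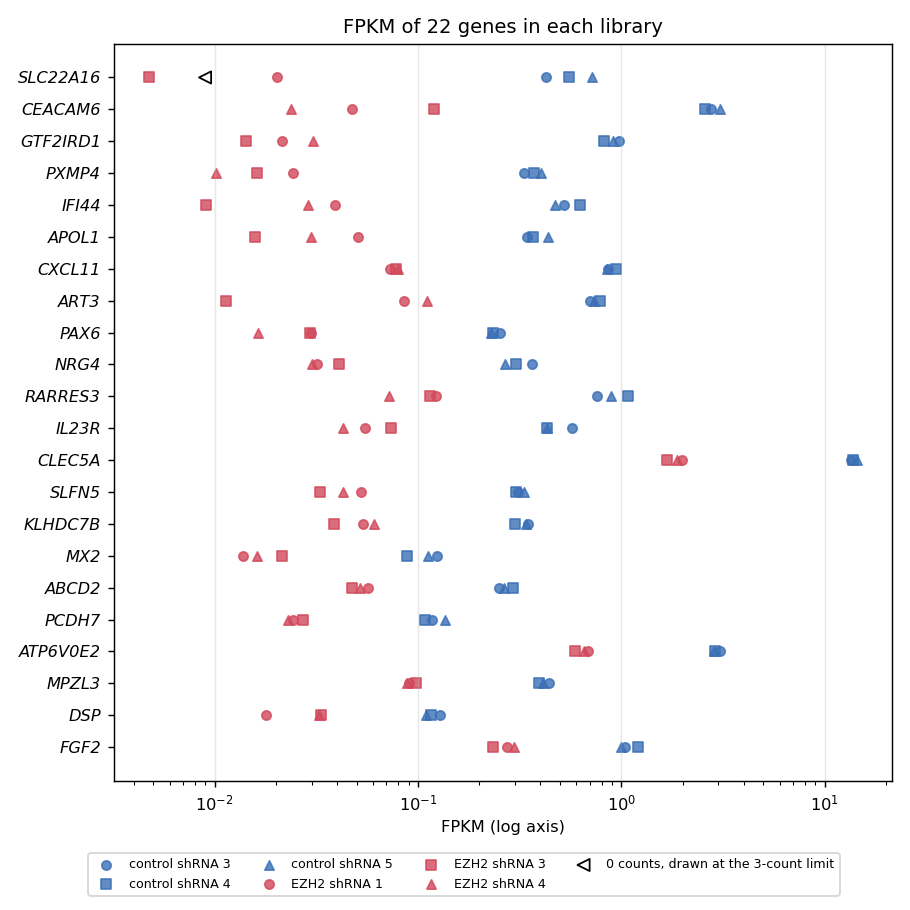
FPKM (log axis) of each of 22 of the 23 genes in the 3 control shRNA libraries (blue) and the 3 EZH2 shRNA libraries (red), ordered from the lowest residual level at the top. Blue and red points are separate in every row, CLEC5A lies furthest right, and the open triangle marks the library with 0 counts of SLC22A16 at the limit of 0.00897 FPKM.

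Interferon-responsive genes outside the families set aside made up 6 of the 23, with residual levels between 4.73% and 15.8%. IFI44 (ENSG00000137965; chromosome 1, 78649796 to 78664078, plus strand), an interferon-induced cytosolic protein, was at 0.522, 0.629 and 0.472 FPKM in the controls and 0.0391, 0.00911 and 0.0287 FPKM with EZH2 shRNA, a residual of 4.73%. It had 150 counts over the controls, exactly the minimum, and 4, 1 and 5 counts in the EZH2 shRNA libraries. APOL1 (chromosome 22, 36253010 to 36267530, plus strand), the trypanosome-lysing apolipoprotein L1, went from 0.345, 0.37 and 0.434 FPKM to 0.0509, 0.0158 and 0.0299 FPKM (8.41%). CXCL11 (chromosome 4, 76033682 to 76041415, minus strand), a chemokine that attracts T cells through CXCR3, was at 0.862, 0.942 and 0.849 FPKM in the controls. In the EZH2 shRNA libraries it was at 0.073, 0.0779 and 0.0796 FPKM, a residual of 8.68% with the smallest spread of the 23 (SD 4.46% of the EZH2 shRNA mean).

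RARRES3 (chromosome 11, 63536808 to 63546462, plus strand), a small phospholipase induced by retinoic acid and interferon, went from 0.759, 1.07 and 0.885 FPKM to 0.122, 0.114 and 0.0719 FPKM (11.3%). SLFN5 (chromosome 17, 35243071 to 35273655, plus strand), a Schlafen family protein, went from 0.311, 0.303 and 0.332 FPKM to 0.0522, 0.0331 and 0.0427 FPKM (13.5%). MX2 (chromosome 21, 41361999 to 41409393, plus strand), an antiviral dynamin-like GTPase of the nuclear envelope, went from 0.125, 0.0883 and 0.112 FPKM to 0.0138, 0.0214 and 0.0162 FPKM (15.8%). MX2 was the gene with the lowest control level of the 23, and its control library 4 was under the other 2. Its neighbour and relative MX1 was at 0.346 CPM in the controls and 0.192 CPM with EZH2 shRNA, without a call (log2 fold change -0.86, SE 0.41, edgeR adjusted p = 0.1).

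Around these 6, the list of interferon-stimulated genes outside IFIT and OAS moved one way. Of 46 further measured genes 44 were called lower and 2, MX1 and LGALS3BP, had no call (edgeR), with a median log2 fold change of -1.085. Over all 16859 genes tested 22.9% were lower, and 28.3% over the 11391 protein-coding ones outside the 23 and the names set aside. The kinase gene EIF2AK2 was at -1.12, TRIM22 at -1.95 and UBE2L6, which attaches ISG15 to proteins, at -1.91. Of the relatives by name, IFI6 fell by 1.78, IFI35 by 1.05 and IFI16 by 0.54, and APOL6 and APOL2 fell by 1.36 and 0.40. SLFN13 and SLFN11 fell by 0.57 and 0.39, and SLFN12 was at -0.15 without a call (edgeR adjusted p = 0.376). The fitted log2 fold changes of the 6 genes, chosen for their size, ran from -2.64 for MX2 to -4.33 for IFI44.

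Among the secreted proteins, NRG4 (chromosome 15, 75935969 to 76059795, minus strand), a ligand of the ERBB4 receptor, was at 0.363, 0.305 and 0.267 FPKM in controls and 0.0317, 0.0407 and 0.0303 FPKM with EZH2 shRNA (11%). NRG4 overlaps FBXO22 on the opposite strand, which was called lower (log2 fold change -0.26, SE 0.05, edgeR adjusted p = 0.000462). Without a stated strand setting the reads of NRG4 and FBXO22 cannot be told apart. FGF2 (chromosome 4, 122826708 to 122898236, plus strand), basic fibroblast growth factor, was at 1.04, 1.21 and 1 FPKM and 0.273, 0.233 and 0.297 FPKM, and at 24.7% it had the highest residual level of the 23. FGF2 overlaps NUDT6 on the opposite strand, and NUDT6 did not follow it (log2 fold change 0.14, SE 0.10, edgeR adjusted p = 0.289). The family genes FGF5 and FGF17 rose from 0.904 to 1.6 CPM and from 0.269 to 0.906 CPM.

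The class of transcription factors had 2 members. GTF2IRD1 (ENSG00000006704; chromosome 7, 74453790 to 74602604, plus strand), a relative of TFII-I from the region deleted in Williams-Beuren syndrome, was at 0.97, 0.824 and 0.91 FPKM in the controls and 0.0214, 0.0143 and 0.0306 FPKM with EZH2 shRNA. With a residual of 2.45% and 29 counts over the EZH2 shRNA libraries, its highest EZH2 shRNA library was 27-fold under its lowest control, the widest gap of the 23. PAX6 (chromosome 11, 31784779 to 31818062, minus strand), a paired-box factor of eye, brain and pancreas development, went from 0.254, 0.234 and 0.228 FPKM to 0.0296, 0.0294 and 0.0163 FPKM (10.5%). Its relatives PAX5 and PAX2 rose, from 17.3 to 36.8 CPM and from 1.44 to 2.25 CPM (log2 fold changes 1.09 and 0.64, edgeR adjusted p = 6.54e-10 and 0.00593). PAX6 overlaps ELP4 on the opposite strand, and ELP4 fell by 0.21. KLHDC7B (chromosome 22, 50546203 to 50551023, plus strand), a kelch-domain protein, stands apart from these classes, at 0.347, 0.301 and 0.341 FPKM in controls and 0.0537, 0.0385 and 0.0606 FPKM with EZH2 shRNA (15.4%).

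Relatives were taken as genes that share the part of the symbol before its last number, where that part has at least 3 characters, which leaves out MX2, IL23R and DSP. In all 46 such genes were measured, of which 10 fell, 19 rose and 17 had no call, with a median log2 fold change of 0.18. All genes tested gave 22.9% lower and 23.8% higher. The 46 are all protein-coding, and the 11391 tested protein-coding genes outside the 23 and the names set aside gave 28.3% and 28.8%. The 10 lower relatives were SLC22A4, IFI6, IFI16, IFI35, APOL2, APOL6, CXCL10, SLFN11, SLFN13 and KLHDC4. GTF2IRD2 and its near-identical copy GTF2IRD2B, which may share reads, rose by 0.40 and 0.47.

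The median residual level differed little between the EZH2 shRNA libraries, while single genes were less even. Over the 23 genes the median was 13.3%, 12.3% and 13.5% in libraries 1, 3 and 4, and 21, 22 and 21 of the 23 were at or under 25% of the control mean in each. The limit set on the mean of these same libraries makes such counts likely. Library 1 held the highest value for 11 genes, library 3 for 7 and library 4 for 5. Within the EZH2 shRNA group the SD was between 4.46% and 127% of the mean (median 22.8%), and within the controls between 3.65% and 25.5% (median 8.14%, against 3.77% over the 10433 genes). Few counts stood behind the residual levels, as 13 of the 23 genes had under 50 counts over the 3 EZH2 shRNA libraries together.

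**Figure D4:**
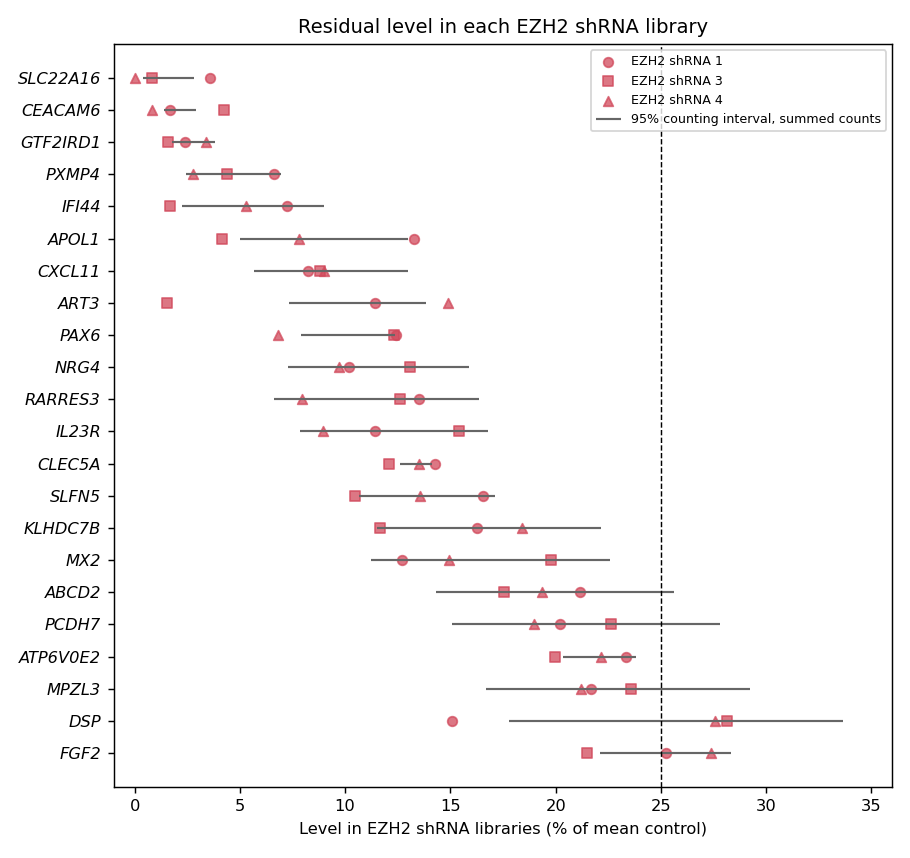
Level of each of 22 genes in EZH2 shRNA libraries 1, 3 and 4 (points) in percent of the mean control FPKM, with the 95% exact counting interval of the ratio of summed counts (grey line) and the limit of 25% (dashed). Points of many genes lie outside the interval, among them SLC22A16, APOL1, PAX6 and CLEC5A, and those of libraries 3 and 4 for CEACAM6 and ART3. An interval from summed counts is narrower than the counting error of a single library. Points of DSP and FGF2 lie beyond the limit.

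Genes chosen without one EZH2 shRNA library could be read in the library left out, but against the same control means that chose them, and the libraries may be technical repeats. These counts are therefore a description. Chosen without library 1, 22 genes met the limits and 20 of them were at or under 25% of control in library 1. Without library 3, 21 of 25 were so in library 3, and without library 4, 20 of 25 in library 4. The highest level of any such gene in the library left out was 28%, 34.2% and 29.7% of control. One gene was lost in each case, DSP without library 1 and FGF2 without library 3, and those gained were HELZ2 and HPSE (without library 3 or 4), IL15RA (without library 3) and REC8 (without library 4). Just inside the limit were ATP6V0E2 at 21.8%, MPZL3 at 22.2%, DSP at 23.6% and FGF2 at 24.7%. Just outside were HPSE at 25.3%, HELZ2 at 25.4%, IRF9 at 25.7%, TRIM22 at 25.9% and REC8 at 25.95%, so the members next to the limit differ little from genes beyond it.

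The 23 genes were spread over 12 chromosomes. Chromosomes 4 and 7 held 4 each (17.4% of the 23), against 3.56% and 4.66% of the 10433 genes; chromosome 11 held 3, chromosomes 1, 6 and 22 held 2 each, and 6 chromosomes held 1. Of those on the same chromosome, the overlapping pair ART3 and CXCL11 was the only one within 1 Mb. The next closest pairs were CLEC5A and ATP6V0E2, 7.93 Mb apart, and IL23R and IFI44, 11.4 Mb apart. ATP6V0E2 starts 0.989 Mb beyond the end of EZH2 on the long arm of chromosome 7, with 10 tested protein-coding genes between them. Gene span had a median of 30.6 kb over the 23 and 32.7 kb over the 10433, 15 of the 23 lay on the plus strand, and 8 overlapped a gene with reads on the opposite strand.

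Genes next to the 23 differed between the groups in both directions. The nearest tested protein-coding gene on each side, other than the 23 and the names set aside, gave 45 different neighbours, of which 19 were called lower (42.2%) and 11 higher (24.4%). Over the 11391 genes from which neighbours were taken the shares were 28.3% lower and 28.8% higher. Some neighbours lay far off, such as TTLL7 at 5201 kb from IFI44. Another 5 overlapped one of the 23, and 3 of these were called lower, where reads may be shared without a stated strand setting. The median log2 fold change of the neighbours was -0.05, and 2 of the 45 fell at least 2-fold (1.85% of the 11391 did), CXCL10 beside CXCL11 (-1.13) and LGALS12 beside RARRES3 (-1.38). Of 6 neighbours on chromosome 11, 5 were lower, a chromosome on which 57.6% of 665 such genes were lower with a median of -0.25; of the 39 elsewhere 14 were lower (35.9%, against 26.5%). The part of the chromosome 11 shift in the low levels of PAX6, RARRES3 and MPZL3 was not tested.

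The flanks of the genes with the lowest residual levels were mixed. CEACAM6 lies between DMAC2 (log2 fold change 0.11) and RPS19 (0.34), both called higher, and GTF2IRD1 between CLIP2 (0.52, higher) and GTF2I (-0.13, lower). PXMP4 lies between the cell cycle factor gene E2F1 (-0.13, lower) and CHMP4B (0.01, no call). On either side of SLC22A16 both CDC40 (-0.20) and CDK19 (-0.76) were called lower. Beyond MGAM, CLEC5A is followed by MGAM2, which rose by 2.14 (SE 0.16, edgeR adjusted p = 1.43e-08). Both neighbours were lower for 4 of the 23, 1 of them for 12 and neither for 7. ATP6V0E2-AS1, a transcript annotated antisense to ATP6V0E2, had 727 counts over the controls and 279 over the EZH2 shRNA libraries (log2 fold change -1.87, SE 0.13, edgeR adjusted p = 7.29e-09), and the reads of this pair cannot be told apart.

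**Figure D5:**
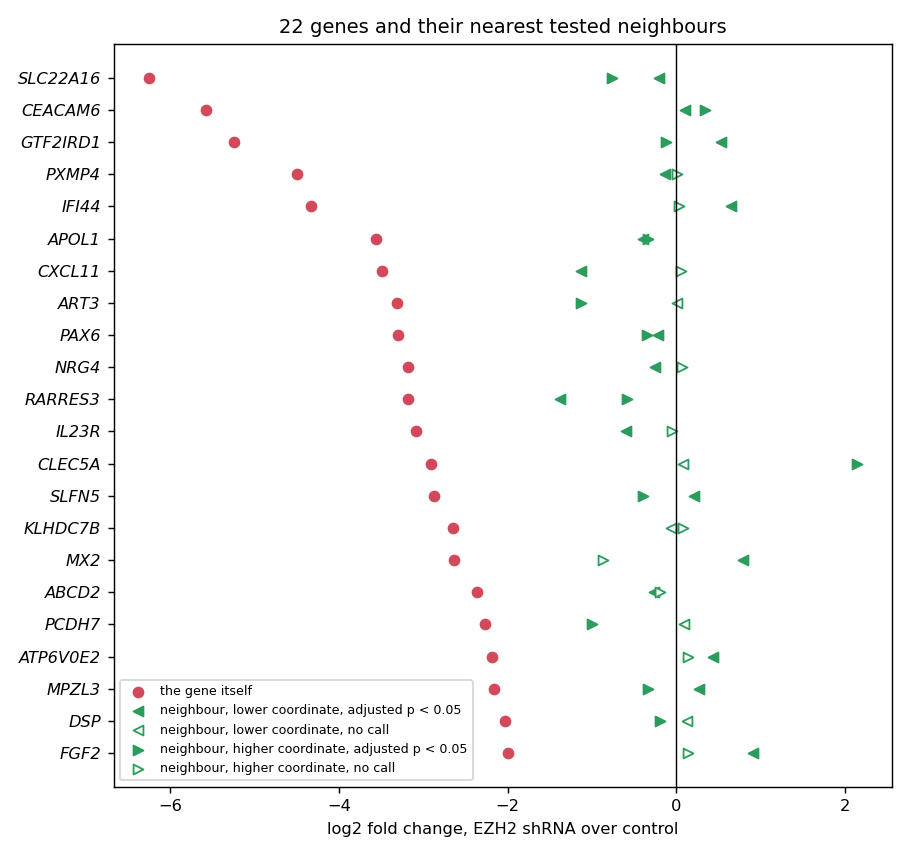
Log2 fold change (EZH2 shRNA over control, edgeR) of each of 22 of the 23 genes (red) and of the nearest tested protein-coding gene at lower and higher coordinates (green triangles, filled where the adjusted p was under 0.05). The neighbours lie around 0, between -1.38 for LGALS12 and 2.14 for MGAM2.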

How the data were processed

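RNA from 6 HL-60 samples was sequenced as single reads of 50 bases from stranded polyadenylated-RNA libraries, per the labels' protocols. The authors deposited unnormalized counts per gene and, separately, FPKM values. GRCh38 and the tools DESeq2 1.24.0, R 3.6.1, STAR 2.5.2b and Picard 2.18.24 appear in the submitters' processing notes without a role. Which program counted reads, with which annotation and strand option, is not given in the sources used here. The 23 genes were chosen from the FPKM means. Tests on counts used the quasi-likelihood test of edgeR 4.0.16 (R 4.3.3) with TMM factors, filterByExpr (16859 genes kept, among them all 23), a model with group alone, and p-values adjusted by Benjamini-Hochberg over those genes at a threshold of 0.05. The code was tested on simulated counts. DESeq2 1.42.0 and limma 3.58.1 served as alternatives. Per-library count intervals are exact Poisson, and ratio intervals are exact binomial. No 2 libraries of a group were the same within counting noise (chi-square per degree of freedom 3.18 to 17.6). Of the 23 genes, 22 are named and 1 is not reported here, with up to 4 genes per list or family by smallest p, and a few others chosen after their values were seen. The genes, lists and functional classes were chosen with earlier results of these data known. Of the lists fixed for this work, those of 15 azurophil granule genes (6 lower, 5 higher), 6 specific granule genes (3 higher), 21 myeloid transcription factors (5 and 10), 14 genes of the GTF2I family and region (5 and 5) and 4 SLC22 transporters (1 lower) hold none of the 23 beside GTF2IRD1, and of the ART family ART3 alone was tested.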

Additional observations from a re-analysis of the deposited data

How the results depend on the processing

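The number of genes at or under 25% of control was 23, and 23 from CPM with TMM factors or library size, 21 from group medians, 32 with 75 counts as the minimum and 16 with a limit of 1/6. It was 8 with 300 counts as the minimum and 51 with a limit of 1/3, while those under 6.25% went from 5 to 2 with 300 counts. Leaving out 1 library at a time gave between 10 and 25 genes, and between 4 and 6 under 6.25%. The fall to 14 without control library 3, 10 without control library 4 and 16 without control library 5 comes mostly from the count minimum, which 10, 9 and 13 genes missed for that reason alone without controls 3, 5 and 4. With a minimum of 100 counts over the other 2 controls, chosen after seeing the data, there were 25, 20 and 27, of which 23, 19 and 23 were among the 23. Counting the 3 nearest neighbours on each side, 53 of 133 were lower (39.8%) against 19 of 45. Genes called lower ranged from 3176 to 4097 over all alternatives. With the title number as a replicate block, 3863 genes were lower and 3858 higher, against 3856 and 4010, and EZH2 was at -0.90; the labels do not say that the numbers pair libraries, and with 2 shared numbers the correlation of deviations was 0.107 for number 3 and 0.119 for number 4. None of the 23 changed direction under any alternative that gave it a value. Their choice for large falls in these same libraries made that outcome close to fixed, so it is no support. Fits on log2 of FPKM + 1 shrank their values, to -0.12 at the least. Under upper-quartile scaling 3588 genes were lower and 4348 higher.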

Other observations

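Outside protein-coding genes, 4 of 2659 rows with at least 150 counts over the controls were at or under 25% of the control mean (0.15%). The long non-coding RNA AL133325.3 on chromosome 20 was at 0.841, 0.781 and 0.882 FPKM in controls 3, 4 and 5 and at 0.0704, 0.101 and 0.0604 FPKM in EZH2 shRNA libraries 1, 3 and 4 (9.26% of control). The pseudogene TCAM1P on chromosome 17 was at 0.8, 0.653 and 0.722 FPKM against 0.0729, 0.0105 and 0.138 FPKM (10.2%). EZH2 library 3 was the lowest for TCAM1P, as it was for 10 of the 23 genes, ART3 among them. The antisense transcript AL035681.1 on chromosome 22 kept 22.6%, and LINC01602 kept 23.1%. None of the 4 lies within 1 Mb of the 23 protein-coding genes.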
